A study of Mus musculus with 7 samples.

Results

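The ATP-binding cassette (ABC) transporter family was taken as every gene with an array probeset of its own whose symbol has the form Abca to Abcg followed by a number and at most one letter, with the brightest probeset kept for each gene. The rule uses names only and no measured difference. It gave 48 of the 19939 genes measured. Levels were read from 7 Affymetrix Mouse Gene 1.0 ST arrays, and every array holds a pool of CD11b+ conventional dendritic cells (cDC2s) from the lungs of 10 female C57Bl/6 mice. The sort gate required CD11c, MHC-II and CD11b and left out cells with Ly6C or CD64. The groups were 2 pools from PBS-treated wild type mice, 2 pools from wild type mice given 100 µg of house dust mite extract (HDM, called mite here), and 3 pools from Irf3-deficient mice given the same dose, all collected 12 hours after treatment. The ages of the mice are not given in the sources used here. Irf3-deficient mice given PBS were not analysed here, so the basal effect of the genotype was not measured. The Irf3-deficient allele and the exons it removes are not given in the sources used here.

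ABC proteins bind and split ATP in a pair of conserved cassettes, and most of them use the energy to move lipids, drugs, peptides or conjugated metabolites across a membrane. Classes A and G hold the sterol and phospholipid exporters that keep the cholesterol content of phagocytes in check. Classes B and C hold drug and conjugate pumps and several organelle transporters, class D serves peroxisomes and lysosomes, and classes E and F have no membrane part and act on ribosomes. In dendritic cells the family is best known for the antigen peptide transporter, whose genes Tap1 and Tap2 carry other symbols and therefore stand outside the 48.

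The arrays followed their labels. The log2 level of Irf3 was 9.48 and 9.56 in PBS-treated wild type, 9.59 and 9.57 in mite-treated wild type, and 8.26, 8.13 and 8.30 in Irf3-deficient pools. Array medians lay between 7.60 and 7.69, and the correlation between arrays was 0.995 to 0.997 inside a group and 0.973 to 0.990 across groups. All 12 cDC2 markers lay above the 75th percentile of gene levels. They summed to 16.58 to 16.60 in PBS-treated wild type, 16.39 in mite-treated wild type and 16.55 to 16.63 in Irf3-deficient pools. After mite in wild type 4 of them fell, among them Itgam, the gene of CD11b (-1.06), and 2 rose. Between the mite-treated genotypes 5 were higher and 1 lower. Markers of monocytes and interstitial macrophages, which the gate should leave out, were also present, with 11 of 16 above the same percentile. Their summed log2 level was 16.06 to 16.30 in PBS-treated wild type, 14.90 to 15.24 in mite-treated wild type and 15.82 to 15.88 in Irf3-deficient pools. Of those 16 markers 15 fell and 1 rose after mite in wild type, and 12 were higher and 2 lower in Irf3-deficient than in wild type mite-treated pools. Beside these counts, 9.23% of all genes fell and 8.35% rose, and 10.7% were higher and 9% lower. Among genes above the median level the shares were 16.5% and 13.9%, then 19.5% and 15.4%. The macrophage marker that rose was Fcgr1, the gene of CD64 (1.79), and it was lower between the mite-treated genotypes (-1.67). Of 8 endothelial markers 6 fell and 1, Kdr, rose after mite in wild type (median -0.67). Against PBS-treated wild type, 4 were lower in mite-treated Irf3-deficient pools, beside 4.9% of all genes and 8.45% of those above the median level. The endothelial sum, to which Kdr gave most after mite in wild type, was 12.09 to 12.45 in PBS-treated wild type, 12.39 to 12.45 in mite-treated wild type and 11.66 to 11.97 in Irf3-deficient pools. Alveolar macrophage markers, 3 of 9 above the 75th percentile and Fabp1 below the 25th, summed highest without Irf3. Their sums were 12.36 to 12.39 in PBS-treated wild type, 12.49 to 12.60 in mite-treated wild type and 12.77 to 13.01 in Irf3-deficient pools. Of the 9, 2 rose and 3 fell in wild type, and 2 were higher and 0 lower between the mite-treated genotypes. Against PBS-treated wild type 3 were higher and 1 lower without Irf3, beside 5.89% and 4.9% of all genes. Many ABC genes are also expressed by macrophages, and the part of all these markers in the results below was not tested. In RNA from pooled cells, fewer cells of a type and less RNA per cell cannot be told apart.

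Of the 48 members, 38 had a promoter window in the RefSeq table of the GRCm38.p6 build, and 45 windows were searched over the 250 bases before the start. The sequences below show the gene that rose most and its neighbouring paralog (Abcb1a and Abcb1b). Next come Abca5 and Abca9, from one row on chromosome 11, which differed in opposite directions between Irf3-deficient and PBS-treated wild type pools. Last are the Abcc4 windows, which alone among these carry a searched motif. Bases are printed 5′ to 3′ on the strand of the gene, in lower case, with motif matches in capitals.
Abcb1a, chr5:8566841-8567090, plus strand: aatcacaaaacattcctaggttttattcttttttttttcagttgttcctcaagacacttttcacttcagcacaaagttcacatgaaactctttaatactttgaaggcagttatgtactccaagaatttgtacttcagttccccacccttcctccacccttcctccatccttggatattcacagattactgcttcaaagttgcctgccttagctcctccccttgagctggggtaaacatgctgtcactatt
Abcb1b, chr5:8797897-8798146, plus strand: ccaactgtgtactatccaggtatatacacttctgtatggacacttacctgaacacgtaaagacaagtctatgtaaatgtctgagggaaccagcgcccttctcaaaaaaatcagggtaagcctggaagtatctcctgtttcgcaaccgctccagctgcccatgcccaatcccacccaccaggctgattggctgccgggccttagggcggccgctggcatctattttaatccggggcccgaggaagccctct
Abca5, chr11:110337717-110337966, minus strand: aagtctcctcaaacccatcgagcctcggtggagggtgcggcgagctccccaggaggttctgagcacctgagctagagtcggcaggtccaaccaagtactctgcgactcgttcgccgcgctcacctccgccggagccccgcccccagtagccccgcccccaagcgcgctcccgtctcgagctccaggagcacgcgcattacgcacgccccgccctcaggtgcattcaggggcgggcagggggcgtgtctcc
Abca9, chr11:110168154-110168403, minus strand: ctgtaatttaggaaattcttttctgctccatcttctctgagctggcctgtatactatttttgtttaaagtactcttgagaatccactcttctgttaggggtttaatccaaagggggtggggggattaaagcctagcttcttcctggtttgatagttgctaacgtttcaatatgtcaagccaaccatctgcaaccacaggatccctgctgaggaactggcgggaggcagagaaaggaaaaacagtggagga
Abcc4, first window, chr14:118706220-118706469, minus strand: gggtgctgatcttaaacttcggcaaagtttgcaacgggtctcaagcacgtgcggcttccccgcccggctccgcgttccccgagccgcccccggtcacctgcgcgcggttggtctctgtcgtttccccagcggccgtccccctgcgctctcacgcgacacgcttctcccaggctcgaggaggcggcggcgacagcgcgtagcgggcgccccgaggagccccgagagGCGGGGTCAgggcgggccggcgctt
Abcc4, second window, chr14:118676932-118677181, minus strand: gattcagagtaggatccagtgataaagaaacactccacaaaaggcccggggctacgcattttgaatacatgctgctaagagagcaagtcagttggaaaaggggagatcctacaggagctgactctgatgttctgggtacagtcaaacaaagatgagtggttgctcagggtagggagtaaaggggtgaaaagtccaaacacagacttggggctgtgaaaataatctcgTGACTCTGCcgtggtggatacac

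The Abcb1a window had 40.4% G or C and 0 CG dinucleotides, whereas that of Abcb1b had 52.8% and 9. The Abca5 window had 69.2% and 25, and that of Abca9 44.4% and 2. The median over member windows was 56.4% G or C, against 52.4% over all 32851 windows of the table. The motifs were searched as exact letters on both strands. The interferon-stimulated response element core, a pair of GAAA with 2 free bases between them, matched 0 of the 45 member windows, and 2.98% of all windows. The kappa B type motif, GGGA and CC with 4 free bases between them, matched 11 of 45 and 17.6% of all, and the antioxidant response element TGACNNNGC matched 4 of 45 and 10.2% of all. The direct repeat of AGGTCA with 4 free bases between copies, bound by the sterol-sensing LXR receptors, matched 0 of 45 and 0.0152% of all. With so rare a match over all windows, 0 of 45 says nothing about LXR sites in the members. In both Abcc4 windows the capitals mark the antioxidant response element, on the opposite strand in the first, and no other searched motif overlapped it. These matches describe letters and show no binding.

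Mean levels of the family ran from percentile 6.0 (Abca16) to percentile 93.6 (Abce1) of all genes. Of the 48 members, 24 lay above the median mean level of all genes, 10 of them above the 75th percentile, and 13 lay below the 25th percentile, where a change would be hard to see on these arrays. The brightest members by mean log2 level were Abce1 at 11.4, Abcg1 at 11.3 and Abcc1 at 11.0, although levels of different probesets cannot be ranked strictly. An F test over the 3 groups passed for 18 members (37.5%), beside 25.5% of all genes. Among members above the median level 13 of 24 passed (54.2%, beside 44.7% of all genes above it), and below the 25th percentile 1 of 13 (7.69%, beside 3.73% of all genes below it).

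**Figure D1:**
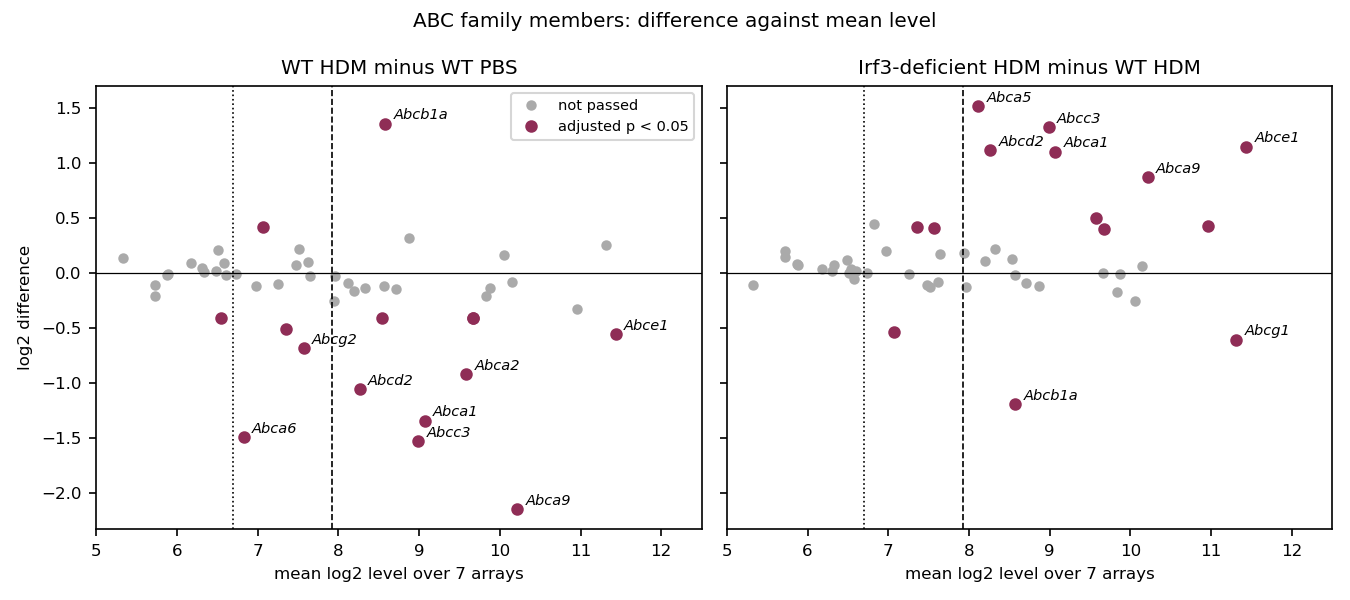
Each point is one of the 48 members, with its mean log2 level over 7 arrays on the x axis and its log2 difference on the y axis, in wild type after mite (left) and between the mite-treated genotypes (right). The dotted line marks the 25th percentile and the dashed line the median of all genes, and members left of the dotted line stay near 0, with Abca8a at -0.42 in the left panel the only one of them past the threshold.

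In wild type cDC2s most ABC genes that changed after mite went down. Of the 48 members 13 fell and 2 rose (limma, adjusted p under 0.05), which makes 31.2% changed beside 17.6% of all genes, 27.1% lower beside 9.23% and 4.17% higher beside 8.35%. The median log2 difference of the members was -0.11, and that of all genes 0.030. The falls were led by Abca9, Abcc3, Abca6, Abca1 and Abcd2, each at least 2-fold, and the rise by the drug pump gene Abcb1a. Groups did not overlap for 28 members (58.3%), beside 52.6% of all genes. Fewer members, and fewer of all genes, passed without replicate 1 of PBS-treated wild type, which leaves a single pool in that group. Tested among all probesets of the array rather than all named genes, 8 members passed, 7 lower and 1 higher, beside 8.97% of all probesets.

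Between the mite-treated genotypes most ABC genes that differed were higher without Irf3. Of the 48 members 11 were higher and 3 lower in Irf3-deficient pools, so 29.2% differed beside 19.7% of all genes, with 22.9% higher beside 10.7% and 6.25% lower beside 9%. The median was 0.065, and that of all genes 0.0022. Abca5, Abcc3, Abce1, Abcd2 and Abca1 were each more than 2-fold higher, and Abcb1a was more than 2-fold lower. Groups did not overlap for 24 members (beside 43.7% of all genes). Both comparisons use the same mite-treated wild type pools, so they are given side by side and are not independent of each other.

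**Figure D2:**
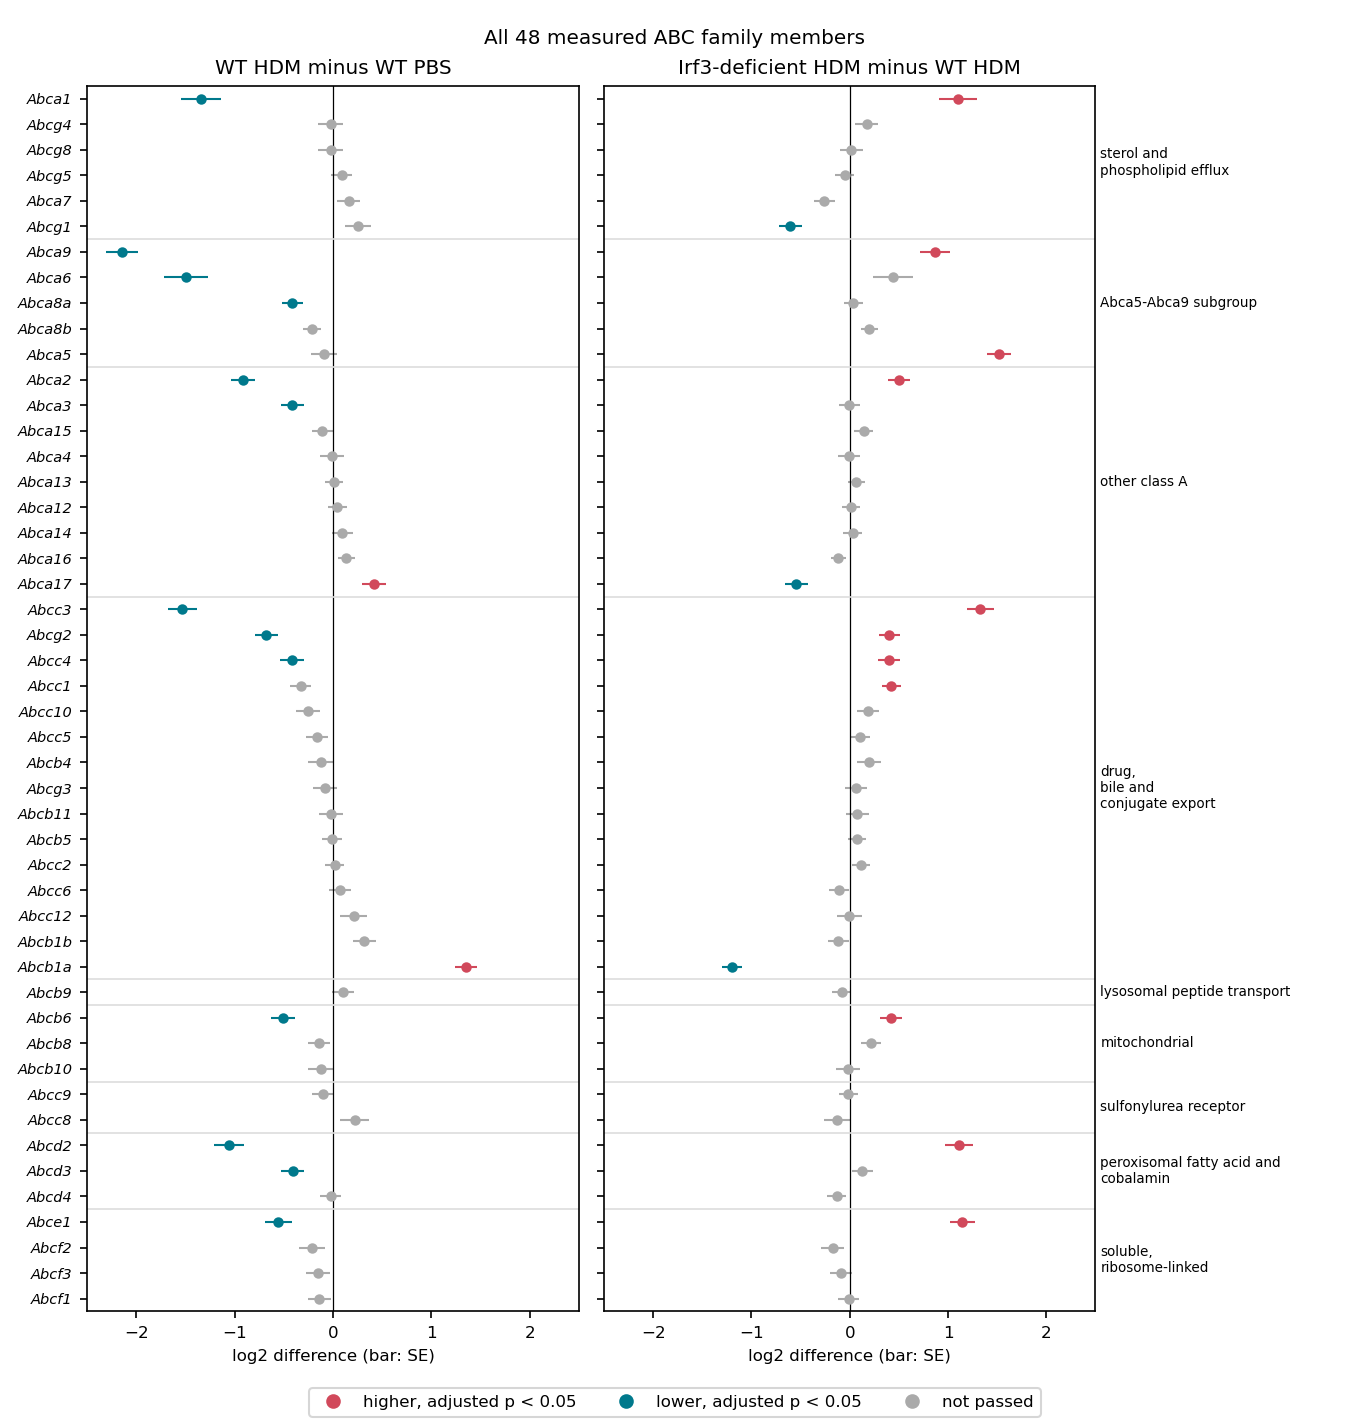
The log2 difference of all 48 members is plotted with its standard error, grouped by known role, for wild type mite against PBS (left) and Irf3-deficient against wild type under mite (right). Red and teal points passed an adjusted p of 0.05 upwards and downwards: 2 and 13 on the left, 11 and 3 on the right.

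The sterol exporters split. Abca1 moves cholesterol and phospholipid onto lipid-poor apolipoprotein A-I. Its log2 level was 9.13 and 9.99 in PBS-treated wild type, 8.29 and 8.14 in mite-treated wild type, and 9.32, 9.27 and 9.36 in Irf3-deficient pools. Every mite-treated wild type value lay below every other value. It fell 2.54-fold in wild type (95% CI 1.86 to 3.47, adjusted p = 0.00059) and was 2.15-fold higher in Irf3-deficient than in wild type mite-treated pools (1.61 to 2.85, adjusted p = 0.00117). The PBS pools disagreed on its size, and the log2 difference was -1.77 without replicate 1 and -0.91 without replicate 2.

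Abcg1, which passes cholesterol on to mature lipoprotein particles, went the other way. Its level was 11.33 and 11.46 in PBS-treated wild type, 11.51 and 11.79 in mite-treated wild type, and 11.21, 10.97 and 10.94 without Irf3. The groups did not overlap, and the Irf3-deficient pools were lowest. It was 1.52-fold lower in Irf3-deficient pools (95% CI 1.28 to 1.82, adjusted p = 0.00265), while the wild type response of 0.25 did not pass (adjusted p = 0.228). The mite-treated wild type pools disagreed on that response, which was 0.39 without replicate 1 and 0.11 without replicate 2. Of the other sterol and phospholipid members, Abca7, a bright class A lipid transporter, Abcg4, and the plant sterol pair Abcg5 and Abcg8 passed in no comparison.

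The tandem group Abca8b, Abca8a, Abca9, Abca6 and Abca5, neighbours on chromosome 11 whose substrates are poorly known, held both the largest fall and the largest genotype difference of the family. Abca9 stood at 11.32 and 11.43 in PBS-treated wild type, 9.39 and 9.07 after mite, and 10.34, 10.15 and 9.80 in Irf3-deficient pools. The 3 groups did not overlap, with the Irf3-deficient pools between the others. It fell 4.43-fold in wild type (95% CI 3.45 to 5.69, adjusted p = 1.76e-06), was 1.83-fold higher in mite-treated Irf3-deficient pools (1.46 to 2.30, adjusted p = 0.00129), and there remained 2.42-fold below PBS-treated wild type (1.93 to 3.04, adjusted p = 0.000269). Abca6 stood at 7.84 and 7.57, at 6.57 and 5.85, and at 6.81, 6.85 and 6.29 in the same order of groups. It fell 2.82-fold in wild type (2.02 to 3.94, adjusted p = 0.000436), and its genotype difference of 0.44 did not pass (adjusted p = 0.171), although the mite-treated wild type pools disagreed, with 0.80 (adjusted p = 0.0128) without replicate 1 and 0.080 without replicate 2. It passed at 0.62 without Irf3-deficient replicate 3.

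Abca5 behaved unlike its neighbours. It stood at 7.42 and 7.65 in PBS-treated wild type and at 7.61 and 7.27 after mite, overlapping ranges with a difference of -0.093 ± 0.13 (SE, adjusted p = 0.729). The Irf3-deficient pools, at 8.94, 8.99 and 8.94, lay above all wild type pools. Abca5 was 2.86-fold higher than in mite-treated wild type (95% CI 2.38 to 3.44, adjusted p = 2.97e-06) and 2.68-fold higher than in PBS-treated wild type (2.23 to 3.22, adjusted p = 2.75e-05). Abca8a, below the 25th percentile of levels, fell by 0.42 in wild type (adjusted p = 0.0177), a call lost without PBS replicate 1, at -0.30, and without mite-treated wild type replicate 1, at -0.37. Abca8b passed in no comparison. The fibroblast markers, another possible source of class A transcripts, summed to 12.69 to 12.71 in PBS-treated wild type, 11.87 to 11.96 in mite-treated wild type and 12.02 to 12.34 in Irf3-deficient pools. Lum lay below the 25th percentile of levels. After mite in wild type 3 of 9 fell, Col14a1 (-2.26), Inmt (-1.08) and Mfap4 (-0.67), beside 9.23% of all genes and 16.5% of those above the median level. Col1a1 (-0.15), Col1a2 (-0.22), Col3a1 (-0.092), Pdgfra (-0.34), Lum (-0.058) and Dcn (0.26) did not pass. Between the mite-treated genotypes 1 was higher, Col14a1 (1.74), and 1 lower, Dcn (-0.79), beside 10.7% and 9% of all genes. The other 7 did not pass there. The part of the fibroblast markers in the Abca9 and Abca6 values was not tested.

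Among the other class A genes, Abca2 and Abca3 fell and Abca17 rose. Abca2, a transporter of lysosomal lipid, stood at 10.07 and 9.97 in PBS-treated wild type, 9.10 and 9.11 after mite, and 9.78, 9.49 and 9.54 without Irf3, with no overlap between groups. It fell 1.89-fold in wild type (95% CI 1.57 to 2.28, adjusted p = 0.00021) and was 1.42-fold higher in Irf3-deficient than in wild type mite-treated pools (1.19 to 1.68, adjusted p = 0.00724). Abca3 loads surfactant lipid into the lamellar bodies of alveolar type II cells. It stood at 9.97 and 9.95, at 9.62 and 9.47, and at 9.64, 9.55 and 9.44 in the same order, so both mite-treated groups were below the PBS group and overlapped each other.

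Abca3 fell by 0.41 in wild type (adjusted p = 0.0298), and its genotype difference under mite was -0.0045 (adjusted p = 0.988). The fall was -0.41 without PBS replicate 1, -0.42 without PBS replicate 2, -0.34 without mite-treated wild type replicate 2 and -0.41 without Irf3-deficient replicate 2, and did not pass in any of these. Lung epithelial markers, with 7 of 12 above the 75th percentile of levels, summed to 14.57 to 14.86 in PBS-treated wild type, 13.91 to 14.66 in mite-treated wild type and 13.84 to 14.04 in Irf3-deficient pools. Within these sums Scgb1a1 stood at 13.57 and 11.64 in the mite-treated wild type pools. After mite in wild type 5 of 12 were lower, beside 9.23% of all genes and 16.5% of those above the median level. Between the mite-treated genotypes 1 was higher, Epcam (1.78), and 1 lower, Sftpc (-0.53), beside 10.7% and 9% of all genes. Against PBS-treated wild type 1 was higher without Irf3, Epcam (0.84), and 5 lower, beside 5.89% and 4.9%. The part of the epithelial markers in the Abca3 value was not tested. Abca17, which lies beside Abca3 and overlaps it at one end, stood at 7.03 and 6.97, at 7.53 and 7.31, and at 6.79, 6.77 and 7.07. It rose by 0.42 in wild type (adjusted p = 0.0385) and was lower by a difference of -0.54 in Irf3-deficient pools (adjusted p = 0.00485). Its rise did not pass without PBS replicate 1 (0.45), PBS replicate 2 (0.39), mite-treated wild type replicate 1 (0.31) or Irf3-deficient replicate 2 (0.42), nor its genotype difference without mite-treated wild type replicate 1 (-0.44). The remaining class A genes, Abca4 and Abca12 to Abca16, were dim and passed in no comparison.

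The drug and conjugate pumps held the family's strongest rise. Abcb1a encodes one of the P-glycoproteins, which expel many drugs and lipids. It stood at 8.14 and 8.10 in PBS-treated wild type, 9.53 and 9.42 after mite, and 8.23, 8.34 and 8.27 in Irf3-deficient pools. Both mite-treated wild type pools were over 1 log2 unit above all others. It rose 2.56-fold in wild type (95% CI 2.16 to 3.03, adjusted p = 3.18e-06) and was 2.29-fold lower in mite-treated Irf3-deficient pools (1.96 to 2.67, adjusted p = 4.81e-06). Against PBS-treated wild type those pools differed by 0.16, with a 95% CI of 0.959 to 1.30 as a fold (adjusted p = 0.398). Markers of cDC1s and of plasmacytoid dendritic cells, none of them below the 25th percentile of levels, also summed highest after mite in wild type, at 13.07 to 13.40 and at 12.79 to 12.80. The sums were 12.39 to 12.63 and 11.51 to 11.59 in PBS-treated wild type, and 12.43 to 12.65 and 12.01 to 12.05 in Irf3-deficient pools. The sums were carried by Irf8, which rose by 1.61, and Bst2, which rose by 2.44, both known as interferon-responsive genes. Clec9a rose by 0.62 and Tcf4 by 0.38, Itgae fell by 0.60 and Cadm1 by 0.88, and Xcr1 (0.050), Batf3 (0.096), Siglech (-0.31) and Ccr9 (-0.076) did not pass. The part of these markers in the Abcb1a value was not tested.

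Abcb1b, the other P-glycoprotein gene of the mouse and a near copy of Abcb1a, stood at 8.62 and 8.77, at 9.08 and 8.95, and at 8.84, 8.94 and 8.90 in the same order. Its values ran the same way with smaller differences, 0.32 in wild type (adjusted p = 0.0844) and -0.12 between genotypes (adjusted p = 0.56), and none passed. The wild type difference passed at 0.38 after quantile normalisation of the gene table and at 0.32 among genes above the median level. The probes of near copies may pick up both transcripts. Abcb4, the third gene of that chromosome 5 row and a phospholipid flippase of bile, passed in no comparison.

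Abcc3, which exports bile acids and glucuronides, stood at 9.33 and 9.70 in PBS-treated wild type, 8.05 and 7.91 after mite, and 9.12, 9.36 and 9.44 in Irf3-deficient pools. The mite-treated wild type pools lay over 1 log2 unit below all others, and the remaining groups overlapped. It fell 2.89-fold (95% CI 2.31 to 3.63, adjusted p = 1.51e-05) and was 2.51-fold higher in Irf3-deficient than in wild type mite-treated pools (2.04 to 3.08, adjusted p = 2.68e-05). Abcg2, an exporter of urate, porphyrins and xenobiotics, stood at 7.997 and 7.765, at 7.22 and 7.18, and at 7.53, 7.70 and 7.57. It fell 1.603-fold (1.34 to 1.91, adjusted p = 0.00129) and was higher by 0.40 without Irf3 (adjusted p = 0.0174). That genotype call was lost without mite-treated wild type replicate 1 (0.42) or replicate 2 (0.39) and without Irf3-deficient replicate 2 (0.35).

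Abcc1, the exporter of leukotriene C4 and glutathione conjugates, stood at 11.00 and 11.03, at 10.70 and 10.68, and at 11.06, 11.03 and 11.24. It was lowest in both mite-treated wild type pools. It was 1.34-fold higher in Irf3-deficient pools (95% CI 1.16 to 1.56, adjusted p = 0.0089), a call lost without mite-treated wild type replicate 2 (0.41). The wild type difference of -0.33 did not pass (adjusted p = 0.0559), though it did at the same value without Irf3-deficient replicate 1. Abcc4, which exports cyclic nucleotides and prostaglandins, stood at 9.78 and 9.81, at 9.52 and 9.24, and at 9.76, 9.71 and 9.86. It fell by 0.42 in wild type (adjusted p = 0.0367) and was higher by 0.40 between genotypes (adjusted p = 0.025).

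Both Abcc4 calls leaned on mite-treated wild type replicate 2, without which they were -0.28 and 0.26 and did not pass. The wild type call was also lost without PBS replicate 1 (-0.43), PBS replicate 2 (-0.40) and Irf3-deficient replicates 2 and 3 (-0.42), and the genotype call without Irf3-deficient replicate 3 (0.36). Tested among all probesets, the genotype calls of Abcc4 and Abcg2 were also lost (adjusted p = 0.0556 and 0.0541). The other members of this role, Abcb4, Abcb5, Abcb11, Abcc2, Abcc5, Abcc6, Abcc10, Abcc12 and Abcg3, passed in no comparison. Of all 15 pump genes 3 fell and 1 rose in wild type, and 4 were higher and 1 lower in Irf3-deficient pools. Beside these, 9.23% of all genes fell and 8.35% rose, and 10.7% were higher and 9% lower, so the single rise and the single lower level are near the shares of all genes.

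**Figure D3:**
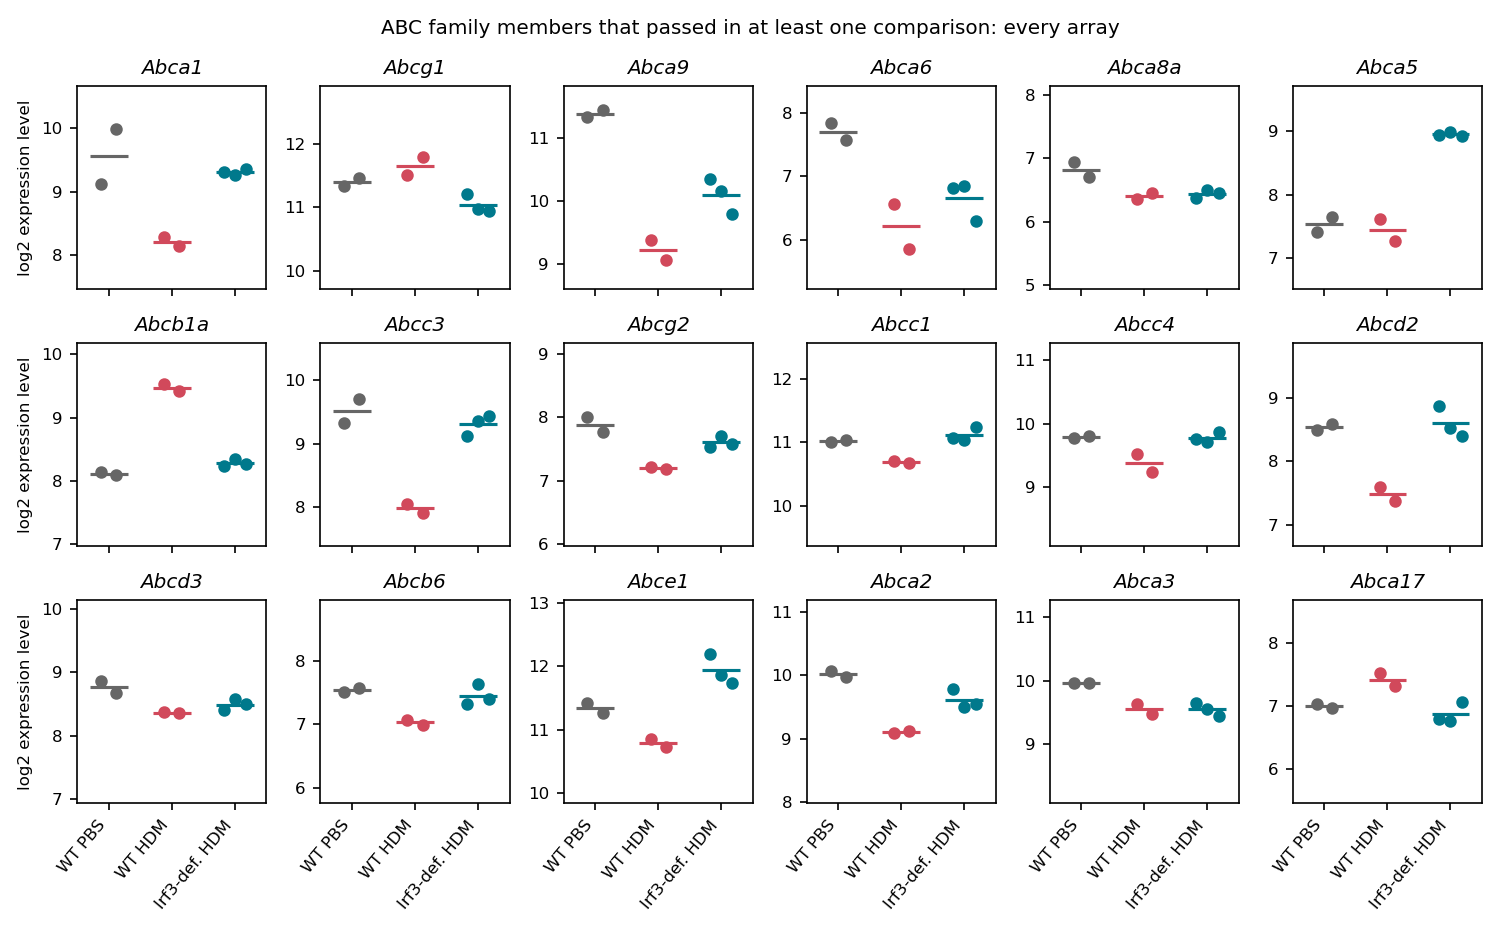
Log2 expression of the 18 members that passed in at least one comparison is plotted for every array (points) with the group mean (line), each panel spanning the same 3.2 log2 units. The mite-treated wild type pools are lowest for Abca1, Abca9, Abcc3 and Abcd2 and highest for Abcb1a, while for Abca5 only the 3 Irf3-deficient pools stand apart, at 8.94 to 8.99.

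Organelle transporters mostly fell or stayed. Abcd2, which carries very long chain fatty acyl-CoA into peroxisomes, stood at 8.49 and 8.59 in PBS-treated wild type, 7.59 and 7.38 after mite, and 8.86, 8.53 and 8.40 in Irf3-deficient pools. The mite-treated wild type pools were lowest and the remaining groups overlapped. It fell 2.08-fold (95% CI 1.66 to 2.61, adjusted p = 0.000336) and was 2.16-fold higher in Irf3-deficient than in wild type mite-treated pools (1.75 to 2.66, adjusted p = 0.000113). Abcd3, another peroxisomal acyl-CoA carrier, fell by 0.41 (adjusted p = 0.0301), with a genotype difference of 0.13 (adjusted p = 0.52). Its fall was -0.35 after quantile normalisation and did not pass (adjusted p = 0.0515), nor without PBS replicate 1 (-0.32) or mite-treated wild type replicate 1 (-0.41) or 2 (-0.41).

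Abcd4, of lysosomal cobalamin release, passed in no comparison. Of the mitochondrial members, Abcb6, linked to porphyrin transport, stood at 7.50 and 7.57, at 7.07 and 6.98, and at 7.32, 7.64 and 7.39. It fell by 0.51 (adjusted p = 0.0112) and was higher by 0.42 between genotypes (adjusted p = 0.0178). The fall did not pass without PBS replicate 2 (-0.48) or mite-treated wild type replicate 2 (-0.47). The genotype call was lost without mite-treated wild type replicate 1 (0.46) or 2 (0.38) or Irf3-deficient replicate 2 (0.33), and both calls when all probesets were tested (adjusted p = 0.0536 and 0.0614). Abcb8 and Abcb10 passed in no comparison, and neither did the lysosomal peptide transporter Abcb9, whose wild type difference of 0.10 had an interval of 0.91 to 1.27 as a fold (adjusted p = 0.621), nor the potassium channel subunits Abcc8 and Abcc9.

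Among the soluble members Abce1 stood alone. Abce1 splits ribosomes after translation so that their subunits can be used again. It stood at 11.42 and 11.27 in PBS-treated wild type, 10.86 and 10.72 after mite, and 12.20, 11.86 and 11.74 in Irf3-deficient pools. The 3 groups did not overlap, with the Irf3-deficient pools highest. It fell 1.47-fold in wild type (95% CI 1.19 to 1.82, adjusted p = 0.0146) and was 2.21-fold higher in Irf3-deficient than in wild type mite-treated pools (1.83 to 2.68, adjusted p = 4.95e-05). The wild type fall was -0.48 without PBS replicate 1 and -0.49 without mite-treated wild type replicate 2, and passed in neither. The translation factors Abcf1, Abcf2 and Abcf3 passed in no comparison, and Abcf1 differed by -0.14 in wild type (adjusted p = 0.513) and by -0.0098 between genotypes (adjusted p = 0.973).

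Against PBS-treated wild type, the mite-treated Irf3-deficient pools differed in fewer ABC genes, and here treatment and genotype differ together. Of 48 members 5 were lower and 2 higher, so 14.6% differed beside 10.8% of all genes, with 10.4% lower beside 4.9% and 4.17% higher beside 5.89%. Groups did not overlap for 22 members (45.8%, beside 39.1% of all genes). The lower members were Abca9 (-1.28), Abca6 (-1.05, adjusted p = 0.00548), Abca3 (-0.42, adjusted p = 0.0274), Abca2 (-0.42, adjusted p = 0.0344) and Abca8a (-0.38, adjusted p = 0.0282), and the higher ones Abca5 (1.42) and Abce1, by 0.59 (adjusted p = 0.0109). All 5 lower members belong to class A. Abca1, Abcc3, Abcc4, Abcd2, Abcb6 and Abcb1a differed by -0.24, -0.21, -0.015, 0.056, -0.091 and 0.16 and did not pass, which does not show that their levels are equal.

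This count depended on which pools were fitted, and so did the share of all genes. Without Irf3-deficient replicate 2 it was 4, where 6.91% of all genes passed, beside 10.8% with every pool. Fewer members, and fewer of all genes, passed without either PBS pool, which leaves a single pool in that group. Abca5 and Abca9 passed with every pool left out in turn, Abca6 in all but 1 case (-0.92 without PBS replicate 1), and Abce1 in all but 2 (0.67 and 0.51 without PBS replicates 1 and 2). Abca8a did not pass without PBS replicate 1 (-0.27) or Irf3-deficient replicate 1 (-0.35), 2 (-0.41) or 3 (-0.38). Abca2 and Abca3 did not pass without PBS replicate 1 (-0.37 and -0.41), PBS replicate 2 (-0.47 and -0.42), Irf3-deficient replicate 2 (-0.36 and -0.42) or Irf3-deficient replicate 3 (-0.39 and -0.36). Abca1 and Abcg1, which did not pass, did so at -0.67 without PBS replicate 1 and at -0.44 without Irf3-deficient replicate 1.

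The 30 members that passed in no comparison were quiet within the reach of these arrays. Their full range over the 7 arrays was 0.16 to 0.57 log2 units, with a median of 0.31, and their differences lay between -0.26 and 0.32 in wild type and between -0.26 and 0.22 between the mite-treated genotypes.

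Tap1 and Tap2, the ABC genes that carry antigen peptides into the endoplasmic reticulum for MHC class I, moved as Abcb1a did. Tap1 stood at 11.23 and 11.12 in PBS-treated wild type, 12.71 and 12.60 after mite, and 11.16, 11.19 and 11.30 in Irf3-deficient pools. It rose 2.78-fold in wild type (95% CI 2.38 to 3.25, adjusted p = 6.66e-07) and was 2.70-fold lower in mite-treated Irf3-deficient pools (2.35 to 3.11, adjusted p = 4.89e-07). Tap2 rose 2.74-fold (2.31 to 3.26, adjusted p = 1.87e-06) and was 2.47-fold lower (2.11 to 2.88, adjusted p = 2.65e-06). The chloride channel gene Cftr, the third ABC gene under another symbol, was dim and passed in neither comparison.

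The genes that control or work with the sterol exporters included strong changes in both directions. Of 13 measured genes of sterol sensing or LXR control 7 fell and 1 rose in wild type (median -0.37, and 0.030 over all genes), and 6 were higher and 1 lower between genotypes (median 0.20, and 0.0022 over all genes). Of all genes 9.23% fell and 8.35% rose in wild type, and 10.7% were higher and 9% lower between genotypes. Among genes above the median level the shares were 16.5% and 13.9%, then 19.5% and 15.4%. Apoe, the lipid carrier loaded by Abca1, fell by 2.03 ± 0.20 (SE, adjusted p = 1.39e-05) and the receptor partner Rxra fell by 0.93 ± 0.13 (adjusted p = 0.000306), while Nr1h3, the gene of LXR alpha, rose by 0.69 ± 0.17 (adjusted p = 0.0127). Between genotypes the lipase gene Lpl was higher by 0.84 (adjusted p = 0.00127) and Rxra by 0.68 (adjusted p = 0.00146), but Apoe was lower still at -0.999 (adjusted p = 0.00164). Apoe is also among the macrophage markers.

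Of 10 cholesterol transport and storage genes 6 fell and 3 rose in wild type (median -0.49, and 0.030 over all genes). Beside these, 9.23% of all genes fell and 8.35% rose, and 16.5% and 13.9% of those above the median level. Ch25h, which makes the LXR ligand 25-hydroxycholesterol, rose by 1.35 (adjusted p = 0.000546) and the lysosomal cholesterol carrier Npc2 by 0.77 (adjusted p = 0.000279), while its partner Npc1 fell by 0.58 and the scavenger receptor Cd36 fell by 0.76. Between genotypes 5 were higher and 3 lower (median 0.30, and 0.0022 over all genes). The shares were 10.7% and 9% of all genes, and 19.5% and 15.4% of those above the median level. The higher ones included Cd36 at 1.16 and the cholesteryl ester hydrolase Nceh1 at 1.10, and the lower ones Stard3 at -0.93 and Npc2 at -0.81.

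Of 12 glutathione and conjugation genes, which supply the conjugate pumps, 7 were higher and 1 lower between genotypes, beside 10.7% and 9% of all genes and 19.5% and 15.4% of those above the median level. These included the glutathione synthesis subunit Gclm at 1.23 (adjusted p = 7.91e-05), the cystine carrier Slc7a11 at 0.96 (adjusted p = 0.000941) and Gsto1 lower at -0.79. In wild type 4 fell and 2 rose, beside 9.23% and 8.35% of all genes and 16.5% and 13.9% of those above the median level. The transferase genes Gstm1 at -1.01 and Gstp1 at -0.63 stood against Gsto1 at 0.94 and Slc7a11 at 0.77.

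The peroxisomal and heme lists had called genes in about the shares of all genes, 17.6% in wild type and 19.7% between genotypes, so their counts describe single genes. In wild type 2 of 11 peroxisomal oxidation genes fell (Hsd17b4 at -0.68 and Acox3 at -0.54), and between genotypes 1 was higher (Pex19 at 0.58) and 1 lower (Acaa1a at -0.43). Of 12 heme and iron-sulfur genes, 1 rose (Iscu at 0.78) and 2 fell (Slc25a37 at -0.52 and Alad at -0.48) in wild type, and Alad and the rate-limiting heme enzyme Alas1 were higher by 0.83 and 0.64 without Irf3. Of 6 cobalamin genes 2 fell in wild type (Mtr at -0.90 and Tcn2 at -0.68), beside 9.23% of all genes and 16.5% of those above the median level. Between genotypes 3 of them were higher, led by Mmachc at 0.85, beside 10.7% and 19.5%. Of 11 genes of ribosome recycling and translation start or stress, 4 were higher and 2 lower in Irf3-deficient pools. The shares were 10.7% and 9% of all genes, and 19.5% and 15.4% of those above the median level. The called genes included the initiation subunit Eif2s3x at 0.81 and the release factor Gspt1 at 0.79, against Eif6 at -0.73 and Eif2s2 at -0.41. In wild type Eif2s2 rose by 0.45 (adjusted p = 0.0464) and Eif2s3x fell by 0.34 (adjusted p = 0.0461).

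**Figure D4:**
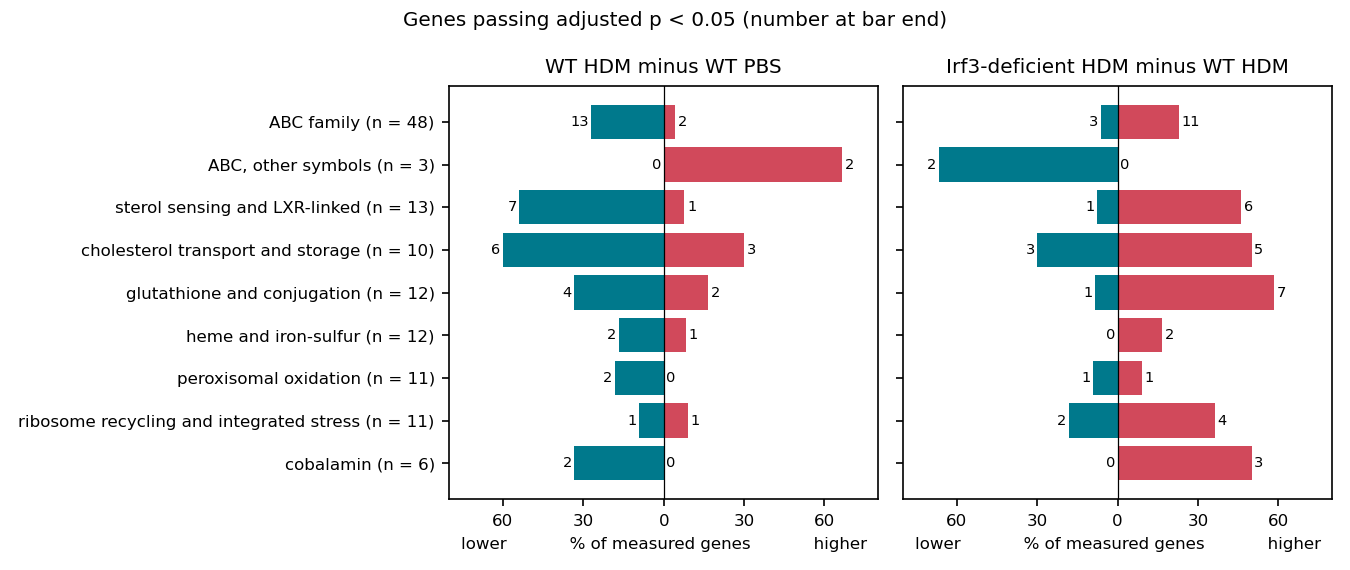
Bars give the percentage of measured genes of each list that passed an adjusted p of 0.05, higher to the right and lower to the left, with the number at the bar end, for wild type mite against PBS (left) and Irf3-deficient against wild type under mite (right). The ABC family itself has 13 lower and 2 higher of 48 on the left, and 3 lower and 11 higher on the right, and the 3 ABC genes under other symbols run the opposite way with 2 of 3.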

How the data were processed

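Each of 7 pools of lung cDC2s gave RNA for 1 array, per the labels' protocols. The deposited values are log2 expression levels of 35556 probesets. The tools listed are R 3.2.1, oligo and RMA, with no role or order, per the submitters' processing notes. RMA by default makes the arrays' distributions alike, so a change shared by most transcripts cannot be seen. Through the platform annotation 21789 probesets carried 1 gene symbol, and updating by Entrez identifier matched 19856 of 19939 genes to RefSeq (GRCm38.p6), all 48 members among them. The brightest probeset stood for a gene. Among the members only Abcb5 had several.

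A linear model with a mean for every group took in the 7 arrays together (limma 3.58.1, R 4.3.3, lmFit and then eBayes with an intensity trend; 4 residual and 8.34 prior degrees of freedom). Tests were two-sided and adjusted by Benjamini-Hochberg over 19939 genes at 0.05. Every adjusted p given for a gene uses this, except those of the test among all probesets, adjusted over 35556. The fit was tested on simulated data. "Rose" and "fell" mark genes that passed. P-values measure the spread between pools. Members and lists were chosen with earlier results of these data known. Named were members passing in any comparison, a panel of Abca1, Abcg1, Abca9, Abcb1a, Abcb1b, Abcc1, Abcg2, Abcb9, Abce1 and Abcf1, of each partner list up to 2 called genes per direction with the smallest p, Irf3, Tap1, Tap2 and Cftr. The alternatives were the probeset rule, the variance prior, the arrays fitted, the scaling, a filter on dim genes, all probesets, a replicate block and leaving out each array. A planned protein comparison was not run.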

Additional observations from a re-analysis of the deposited data

How the results depend on the processing

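The 36 member differences that passed were recomputed at up to 17 settings. The filters on dim genes left out members below their cut, such as Abca6, so those members were not tested there. None reversed at any setting that tested it. Of the 36, 19 passed at every setting that tested them, and 17 were lost at some setting. Of the 27 named differences that had not passed, 5 passed at one setting or more. Testing all probesets adjusts p-values over more features. It gave 8 members for wild type mite against PBS, beside 8.97% of all probesets. Between the mite-treated genotypes it gave 11 (without Abcc4, Abcg2 and Abcb6), beside 12.4%, and for Irf3-deficient mite against wild type PBS 2, beside 5.91%. With each array left out in turn the counts were 9 to 16 for wild type, 10 to 14 between the mite-treated genotypes, 3 to 7 for Irf3-deficient mite against wild type PBS, and 14 to 17 for the F test. With arrays left out, the shares of all genes that passed moved as well. Under median centring and quantile normalisation the members lower and higher were 13 and 2 or 14 and 3 in wild type, and 3 and 11 under both between genotypes. Of all genes 17% and 17.8% passed in wild type under these, and 18.9% and 20.2% between genotypes. With the sample number as a replicate block, 12, 13 and 5 members passed in the 3 comparisons and 15 in the F test. The shares of all genes in those 3 comparisons were 15.6%, 16.3% and 7.15%. Nothing in the labels says that a number pairs pools, and deviations of same-numbered arrays correlated between -0.233 and 0.178, so the block was not used. With 2 or 3 arrays a group, differences near 0.4 on the log2 scale are at the limit of what passes, and the 13 members below the 25th percentile of gene levels cannot be read as unchanged.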

Other observations

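The genes on either side of the chromosome 11 row that holds Abca8b, Abca8a, Abca9, Abca6 and Abca5 were read after the values of that row were seen. Map2k6, a kinase gene of the p38 pathway and the nearest measured gene beyond Abca5, fell by 1.76 in wild type (adjusted p = 1.05e-05), was higher by 0.83 in Irf3-deficient than in wild type mite-treated pools (adjusted p = 0.0017) and differed by -0.93 from PBS-treated wild type (adjusted p = 0.00204), the signs of Abca9 in all 3 comparisons. Abca5, which lies between them, was 1.42 above PBS-treated wild type in the last of these (adjusted p = 2.75e-05) and differed by -0.093 in the first (adjusted p = 0.729). Next in that direction, Kcnj16 passed in none of the 3 and the potassium channel gene Kcnj2 fell by 0.33 in wild type (adjusted p = 0.0353) and was higher by 0.62 between genotypes (adjusted p = 0.000378). On the other side Fam20a was higher by 0.38 between the mite-treated genotypes (adjusted p = 0.0237). It was also 0.45 above PBS-treated wild type (adjusted p = 0.0179) and differed by 0.068 in wild type (adjusted p = 0.78), the called directions of Abca5. Prkar1a, Wipi1 and 1700012B07Rik, and BC006965 beyond Kcnj2, passed in none.

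Around Abce1 on chromosome 8, the 4 nearest measured genes on each side passed in none of the 3 comparisons. The nearest were Otud4 at 0.28 (adjusted p = 0.0555) and Anapc10 at -0.28 (adjusted p = 0.147) between the mite-treated genotypes, against 1.15 for Abce1.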
